A study of Vigna radiata with 42 samples.

Results

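The genes described here are the 150 whose transcript level varied least among the well-expressed genes of mung bean leaves under salt. They were picked from the deposited expression table by 2 steps. Of 28740 gene IDs, 3253 had a mean value of at least 50 over the 42 libraries, and from these the 150 with the smallest standard deviation (SD) of log2(value + 1) over the same libraries were taken. The values that chose the genes are the values given below, so levels, spreads and differences in all 42 libraries are a description of the choice. The reading that is independent of the choice comes from genes picked in the libraries of one treatment and read in those of the other.

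Leaves of Vigna radiata cultivar Weilv 9 were sampled from hydroponic seedlings grown in half-strength Murashige and Skoog solution with 16 h of light and 8 h of dark. T1 seedlings were pre-conditioned, with NaCl at 100 mM for 24 h, then 48 h of recovery without salt, then the same salt again, so T1 at 0 h had recovered from a first exposure. T2 seedlings met the salt a single time, and at 0 h had never been salted. The first fully expanded true leaves were sampled just before the last exposure to salt (0 h) and at 6 later times, 1, 3, 6, 12, 24 or 48 h into it, with 3 libraries per treatment and time, 14 groups in all. Plants without salt after 0 h are not among the groups, so time in salt and age cannot be told apart. At 1, 3, 6 and 12 h time of day cannot be told apart from them either. The times 0, 24 and 48 h lie whole days apart and share the time of day. The poly(A) libraries were sequenced on the DNBSEQ platform. The labels do not say whether the 3 libraries of a group came from different plants or pools, so their spread may be partly technical. In whole leaves, fewer cells of a type and less RNA per cell cannot be told apart.

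Reference genes are transcripts used as an internal yardstick when RNA is measured by quantitative PCR, where a target is expressed as a ratio to them. They are usually sought among genes for functions that every living cell needs, such as protein synthesis and turnover, the cytoskeleton and membrane traffic, and a good one keeps its share of the RNA when the treatment changes. Leaves are a demanding case, because photosynthesis and clock genes follow the day and salt stress redirects a large part of the transcriptome. The table names genes by ID alone, and 0 of its 28740 IDs occur in the RefSeq gene table, so the genes are described by ID and by value, with no function and no sequence. Leaf identity could not be checked with marker genes for the same reason.

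The values carry the name TPM (transcripts per 1000000), but the column sums range over 783218 to 1228250 and have 1000000 as their geometric mean. A scaling between libraries has therefore been applied on top, and what is called steady depends on it. Between 17235 and 18913 genes reached a value of 1 in a library, and the relative depth of libraries lay between 0.779 and 1.42, with the median library at 1. A few libraries need naming. T1 0 h replicate 2 stands apart from its group: the lowest Pearson correlation between 2 libraries of one group over the 3253 genes, 0.825 against a median of 0.964, was its own with T1 0 h replicate 3. Without it 144 of the 150 genes were chosen again. Plastid IDs held 5.38% of the sum in the first T1 library at 24 h, 2.5% in the second T2 library at 24 h and 2.08% in the third T2 library at 12 h, and without these 3 libraries 144 were likewise chosen again.

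The SD of the 150 genes ran from 0.0715 to 0.161 on the log2 scale with a median of 0.142, against a median of 0.430 over all 3253 well-expressed genes. As a coefficient of variation of the deposited values this was a median of 10.1%, with a range from 4.97% to 12.0%, against a median of 30.6% for the 3253. The highest library of a gene was at most 1.80 times its lowest, and the median ratio was 1.53. Of all 3253 genes, 607 (18.7%) kept a ratio of highest to lowest library under 2. The limit of the list falls where genes lie close together: Virad10G0131500 and Virad08G0225600, the last inside, had SDs of 0.1603 and 0.1606, and Virad03G0044500 and Virad03G0068000, the first outside, had 0.1609 and 0.1610. Membership near the limit is therefore a matter of the fourth decimal.

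**Figure D1:**
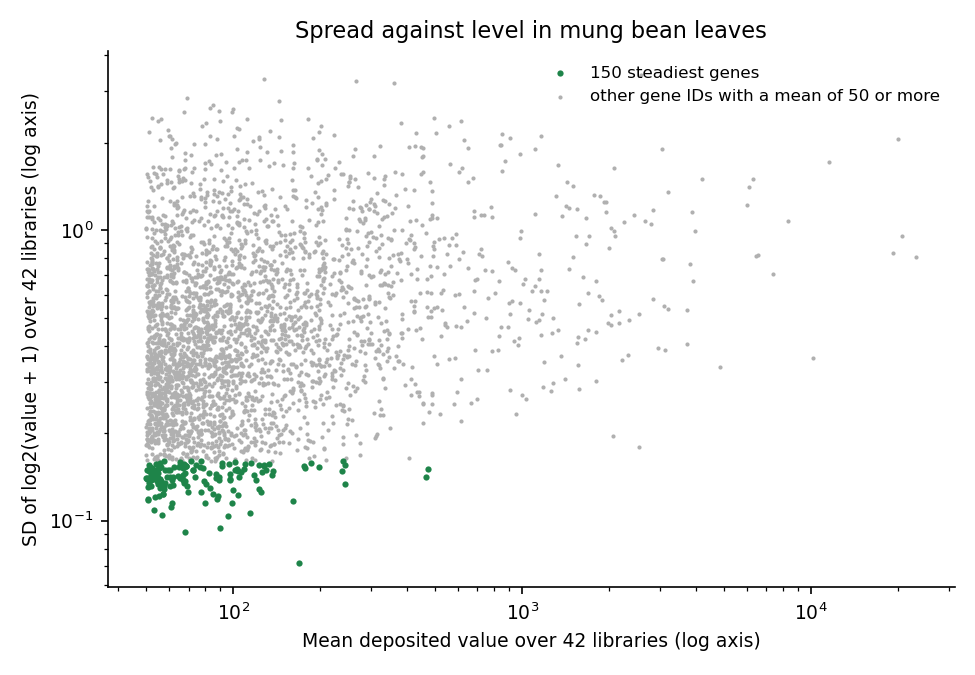
Spread against level for the 3253 gene IDs with a mean value of at least 50. The x axis is the mean deposited value and the y axis the SD of log2(value + 1) over 42 libraries, both on log axes. The 150 chosen genes (green) form the lower edge, from 0.0715 to 0.161, and lie towards the left, with none at a mean of 500 or more.

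Most of the steadiest genes lay in the lower part of the well-expressed range, which starts at the limit of 50. Their means ran from 50.05 to 470.4 with a median of 67.4, against a median of 91.1 for the 3253. A mean under 100 was seen in 114 of the 150 genes (76.0%) and in 55.7% of the 3253, while 6 of the 150 (4.0%) reached a mean of 200, against 20.3% of the 3253. None of the 211 genes with a mean of 500 or more was a member, and none of the 100 genes with the highest mean. From a mean of 50 upward the spread grew with level. The median SD was 0.361 for the 1811 genes with means from 50 to 100, 0.462 for the 782 with means from 100 to 200, 0.597 for the 449 with means from 200 to 500 and 0.677 above that. Below the limit of 50 it was 0.297 for the 4161 genes with means from 20 to 50, 0.318 for the 6737 with means from 5 to 20 and 0.440 for the 4015 with means from 1 to 5. With the limit at 20 in place of 50, 30 of the 150 genes were chosen. With the limit at 100, 36 were, which is the number of members that reach this mean.

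Virad01G0171100 had the smallest SD, 0.0715, at a mean of 168.9. At 0 h it stood at 158, 179 and 167 in T1 leaves and at 160.4, 159 and 167 in T2 leaves. At 1 h the values were 171, 161 and 169.6 in T1 and 171, 171 and 182 in T2, and at 3 h they were 181, 170.5 and 176 in T1 and 167, 162 and 170.4 in T2. T1 and T2 libraries overlapped at 0 and 1 h and lay side by side at 3 h, T1 just above T2. At 6 h T1 libraries had 171, 167 and 172 and T2 libraries 159, 163 and 153. At 12 h T1 libraries had 175, 168 and 165 and T2 libraries 170.3, 175 and 169.5. At 24 h T1 libraries had 154, 177 and 174 and T2 libraries 163, 154 and 157. T1 and T2 overlapped at 12 and 24 h and not at 6 h, where T1 lay above T2. At 48 h T1 libraries had 165, 174 and 175, and T2 libraries had 184, 185 and 183. These 3 T2 libraries at 48 h were the highest of the 42, and the ratio of the highest to the lowest value was 1.2.

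The next 5 genes were close behind. Virad08G0454000 had its lowest library at 59.99, its median at 67.3 and its highest at 82.8, with an SD of 0.0915. Virad10G0308600 ran from 76.4 through 89.8 to 103.8 with an SD of 0.0942, and Virad11G0063500 from 81.6 through 94.99 to 108 with an SD of 0.104. Virad08G0151000 ran from 49.2 through 55.8 to 66.0 and Virad08G0162700 from 98.3 through 113 to 139.9, with SDs of 0.105 and 0.107. What little movement they showed was partly shared. The highest group mean fell in T1 at 6 h for Virad08G0454000 and Virad08G0162700, and in T2 at 6 h for Virad11G0063500 and Virad08G0151000. For Virad10G0308600 it fell in T2 at 0 h. Virad10G0308600 was lowest at 12 h, at 76.4 to 84.3 in T1 and 79.1 to 84.2 in T2. Virad08G0151000 was highest at 6 h, at 63.0 ± 2.80 in T1 and 64.4 ± 1.74 in T2 (SD, n = 3 each), and lowest at 12 h, at 51.8 ± 0.534 in T1 and 52.1 ± 2.56 in T2 (SD, n = 3 each). Virad08G0162700 separated the treatments at 48 h, where T1 stood at 129 ± 1.84 and T2 at 112 ± 0.633 with no overlap of libraries.

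**Figure D2:**
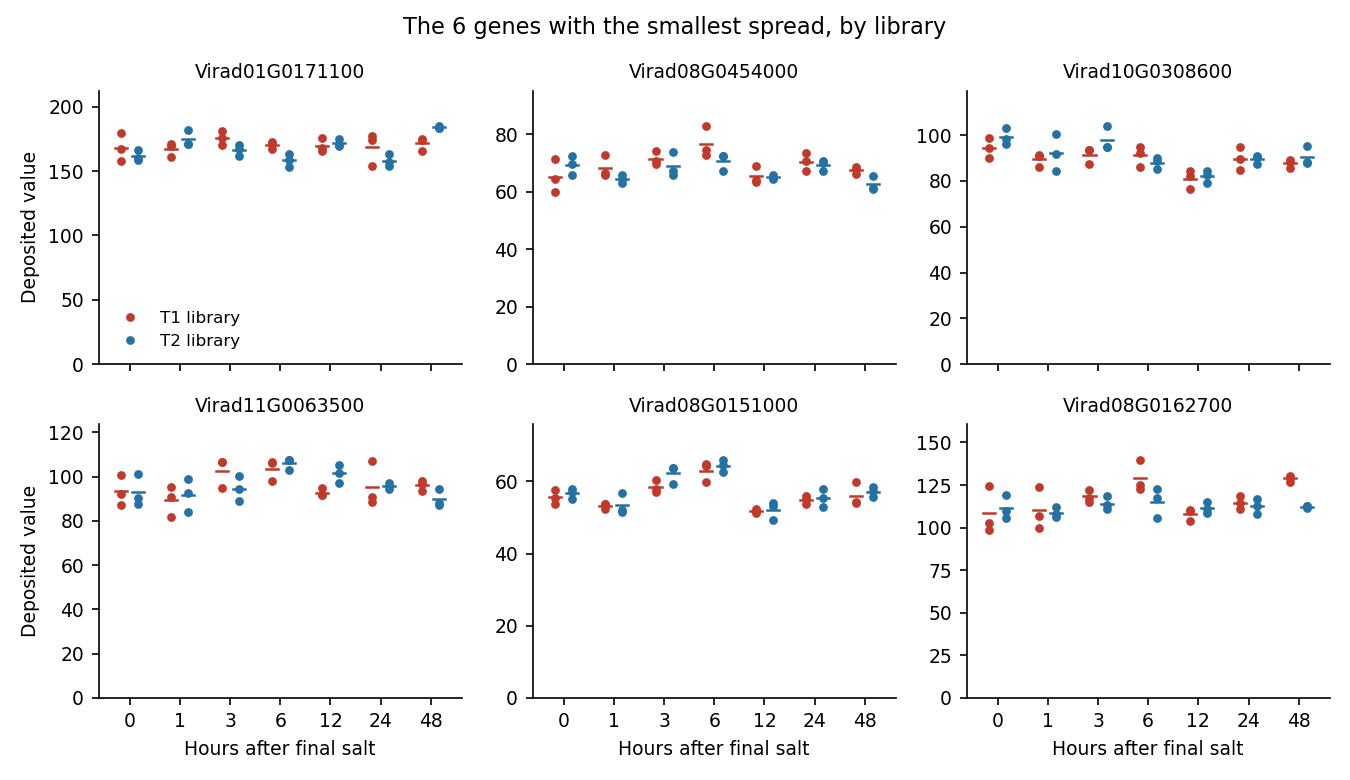
Deposited values of the 6 genes with the smallest SD in each of 42 libraries, by hours after the final salt, with T1 libraries in red left of T2 libraries in blue, short lines for the mean of 3 and y axes that start at 0. All 6 stay within a ratio of highest to lowest library between 1.2 and 1.42. The highest group mean falls at 6 h in some of the genes and at other times in the rest.

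The most abundant members were Virad11G0012100 and Virad11G0089500. Virad11G0012100 ran from 393 through 461 to 614 with a mean of 470.4, and its highest group was T1 at 6 h. Virad11G0089500 ran from 369 through 469 to 568 with a mean of 466 and was highest in T2 at 1 h. Virad04G0262000 had a lowest, median and highest library of 195, 242 and 322, and Virad07G0358000 of 199.5, 239 and 295. The SDs of these 4 genes, 0.134 to 0.156, lie in the same range as those of the rarer members.

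The small variation that remained was ordered mainly by time. Time accounted for a median of 46.9% of a member's variance over the 42 libraries, treatment for 3.75%, the time by treatment term for 13.0% and the spread between replicates for 30.8%. Over the 3253 well-expressed genes these medians were 69.5%, 2.16%, 7.26% and 16.2%. The shares come from raw sums of squares, with no allowance for the number of groups, so replicate spread adds to each term. The 13.0% against 7.26% therefore does not show that members differ more between treatments in their course. The SD between replicates of one group had a median of 0.0936 in members and 0.202 in the 3253, and the SD of the 14 group means had a median of 0.118 in members and 0.400 in the 3253. The group means varied more than the replicates in 113 of the 150 members and in 94.1% of the 3253. The highest and the lowest group mean of a member lay between 0.22 and 0.60 apart on the log2 scale, with a median of 0.40, against a median of 1.36 in the 3253.

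Membership in the list did not mean that no change was called. With limma, over all 19753 genes tested, 112 of the 150 members passed an adjusted p of 0.05 in the F test over time in T1, where the share over all genes was 83.3%. In the F test over time in T2, 97 of the 150 passed, where the share over all genes was 82.5%. T1 and T2 differed over the 7 times in 38 members, with 33.5% called over all genes, and 16 members, with 15.9% called over all genes, had a different course in the 2 treatments. The rule used these same values, so these counts only describe the members. Of the 150, 16 (10.7%) passed in none of the 4 F tests, against 8.14% of all genes tested and 2.46% of the 3253. The count of 38 became 62 when T1 0 h replicate 2 was left out (50.5% over all genes). It became 22 and 18 when replicate 1 or 2 of T1 at 48 h was left out (26.3% over all genes in both), 23 without the 3 libraries high in plastid signal (24.8%) and 24 after quantile normalization (34%). The count of 16 became 29 when T1 0 h replicate 2 was left out (32.2% over all genes), 6 and 9 when replicate 1 or 2 of T1 at 48 h was (9.3% and 11.2%), and 8 when replicate 1 of T2 at 48 h was (10.2%). In these fits with a single library left out the share over all genes moved the same way as the members' counts. That did not hold for every library: without T2 3 h replicate 2 the count of 38 became 34, with 35.8% over all genes.

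The changes so called were small. In 19 single contrasts (T1 against T2 at each of 7 times, and each later time against 0 h of the same treatment) a member was called in a median of 2 and at most 7, and 20 members (13.3%) were called in none. Over all genes the median was 4, and 8.97% were called in none. In 148 of the 150 members every one of the 19 log2 differences lay between -0.5 and 0.5, and in 88 members the whole 95% interval of each did. For the 3253 well-expressed genes those counts were 549 (16.9%) and 113 (3.47%). The rule took the genes with the smallest spread in these same libraries, so small differences and narrow intervals were largely fixed in advance. The median half-width of such an interval was 0.17 for members and 0.33 for the 3253. With 3 libraries a group, differences smaller than 0.17 were thus seldom resolved in members. In a band of ±0.25, 35 members kept all 19 estimates and 0 kept all 19 intervals. Within ±1, all 150 members kept all 19 intervals.

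The members with the largest called differences show the far end of the list. Virad09G0002500 stood at 167, 168 and 154 in T1 at 48 h, against 111, 109.7 and 121 in T1 at 0 h, a log2 difference of 0.52 (SE 0.08). The difference was 0.82 when all libraries were set to one total. In T2 it had 122, 131 and 119 at 48 h, against 108, 116 and 113 at 0 h. It was also above its 0 h level in T1 at 6 h, with 153, 132 and 137, and overlapped between treatments at 0, 1, 3, 12 and 24 h. Virad08G0444900 had 61.7, 71.0 and 66.1 in T1 at 3 h against 39.5, 51.6 and 47.8 in T1 at 0 h, a log2 difference of 0.51 (SE 0.10). Part of this lies in T1 0 h replicate 1, its lowest library of all 42, and with 1 library left out the difference ran from 0.41 to 0.60. Its T2 libraries stayed between 46.7 and 61.6.

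Virad08G0155400 went the other way, with 75.8, 79.0 and 78.5 in T1 at 6 h against 114, 101 and 97.97 in T1 at 0 h, a log2 difference of -0.41 (SE 0.07). In T2 it stood at 75.4, 81.3 and 74.3 at 6 h against 90.9, 98.9 and 93.9 at 0 h, so the 6 h libraries lay below the 0 h libraries in both treatments. At 24 h it stood at 96.8 ± 3.84 in T1 and 96.4 ± 1.41 in T2, and at 48 h at 83.7 ± 5.27 in T1 and 95.3 ± 3.53 in T2 (SD, n = 3 each). When all libraries were set to one total, its T1 difference at 6 h shrank to -0.12. Virad08G0225600 had a log2 difference of -0.36 (SE 0.10) in T1 at 3 h, where it had 230.5, 194 and 183 against 236, 304 and 241 at 0 h, the highest of these being the library that stands apart. That value ran from -0.45 to -0.24 with 1 library left out.

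The 150 genes did not scatter evenly around their own means. Their highest group mean fell in T1 at 48 h for 38 genes (25.3%) and in T1 at 6 h for 37 (24.7%), against 17.4% and 11.5% of the 3253. The lowest group mean fell in T1 at 12 h for 27 genes (18%) and in T2 at 12 h for 13 (8.67%), against 13.4% and 16.3% of the 3253. At 6 h in T1, 120 of the 150 genes were above their own mean, and the median deviation was 0.10 on the log2 scale. At 48 h in T1, 105 were above it, with a median deviation of 0.10. At 12 h only 38 genes in T1 and 42 in T2 were above their own mean, with a median deviation of -0.06 in each. The 12 h values turn with the scaling: after quantile normalization 100 genes in T1 and 110 in T2 were above their own mean, with medians of 0.07 in each, and with every library at the same total all 150 were in both. Over the 3253 genes the medians at T1 6 h, T1 48 h, T1 12 h and T2 12 h were 0.06, 0.02, -0.12 and -0.12.

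**Figure D3:**
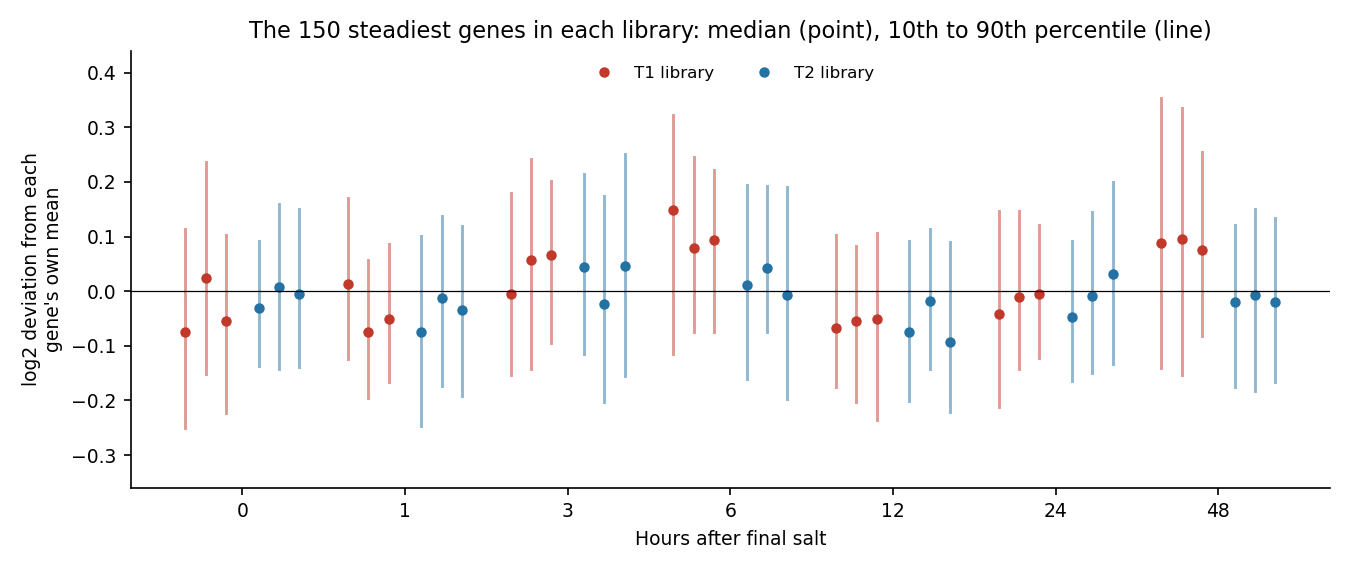
Deviation of the 150 genes from their own means in each of 42 libraries, on the log2 scale, by hours after the final salt, with T1 in red left of T2 in blue. Points are the median over 150 genes and lines run from the 10th to the 90th percentile. The 3 T1 libraries at 6 h and the 3 at 48 h have medians between 0.08 and 0.15, above those of T2 at the same times.

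A single direction carried part of this movement. The first principal component of the 150 genes held 21.7% of their variance and 136 of the 150 genes pointed the same way on it. The 6 libraries at its high end were the 3 T1 libraries at 6 h and the 3 at 48 h. The next 4 components held 13.9%, 10.6%, 9.38% and 8.31%. Taking the median of the 150 genes off each library, which removes a single common shift, brought the median SD to 0.128, against 0.142 before. The mean log2 value of all 150 genes had an SD of 0.054 over the 42 libraries, that of the 3 steadiest genes 0.0477 and that of the 20 steadiest 0.0415. The geometric mean of the 150 genes lay between 73.0 and 84.1 in all libraries.

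By single time, limma called 1 member between T1 and T2 at 0 h (4.75% over all genes), 2 at 1 h (8.24%) and 41 at 48 h (23.6%). At the other times limma called 0: at 3 h (0.446% over all genes), 6 h (0.0557%), 12 h (0.835%) and 24 h (2.68%), where 29, 31, 4 and 6 members had an unadjusted p under 0.05. At 48 h the treatments differed most in these genes, and the share called over all genes was also highest then. The 41 called members are 27.3% of the list, against 29.5% of the well-expressed genes. The peak at 48 h was therefore not particular to members. Of the 150 members 112 had a higher mean in T1 than in T2, where 48.5% of all genes did. The median log2 difference was 0.11 with quartiles of -0.01 and 0.24. The median over all genes was -0.01, and that of the well-expressed genes was -0.01 as well. Called higher in T1 were 38 members (25.3%, against 14% over all genes and 18.1% of the well-expressed genes). Called lower were 3 (2%, against 9.62% over all genes and 11.4% of the well-expressed genes). The total of 41 was 24 without T2 48 h replicate 1 (16.1% over all genes), and 26 when all libraries were set to one total (20.5%). At 6 h the same number, 112 members, had a higher mean in T1, where 51.3% of all genes did. The median difference at 6 h was 0.07 in members, 0.08 in the well-expressed genes and 0.01 over all genes. In this median the members thus did not stand apart from the well-expressed genes. At 12 h the treatments lay closest, with all 150 differences between -0.13 and 0.23. At 0 h the median difference was -0.03. After quantile normalization the median at 48 h was 0.02 and at 6 h 0.00, with 22 members called higher and 14 lower at 48 h, so the size of this offset between treatments depends on how the libraries are scaled.

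Against 0 h, limma called 1 member in T1 at 1 h (11% over all genes), 30 members at 3 h (26%), 57 members at 6 h (45%), 29 members at 12 h (41.7%), 11 members at 24 h (20.3%) and 60 members at 48 h (49.8%). For T2 the calls were 13 members at 1 h (28.8% over all genes), 15 members at 3 h (26.2%), 22 members at 6 h (35.7%), 33 members at 12 h (48.4%), 11 members at 24 h (21.6%) and 20 members at 48 h (41.5%). By direction, T1 at 48 h had 50 members called higher (28.4% over all genes) and 10 lower (21.4% over all genes), with a median log2 difference of 0.13. T1 at 6 h had 53 higher (24.3% over all genes) and 4 lower (20.7% over all genes), with a median of 0.14. In T2 the medians were -0.02 at 48 h and 0.03 at 6 h. T2 at 48 h had 11 members higher (21.3% over all genes) and 9 lower (20.2% over all genes). The T1 count of 57 at 6 h fell to 37 when T1 0 h replicate 1 was left out (38.5% over all genes) and to 35 when T1 6 h replicate 1 was (38.4%). At 24 h the median differences were 0.02 in T1 and 0.01 in T2.

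The change from 0 h itself differed between T1 and T2 in 17 members at 48 h (8.38% over all genes), all 17 with the higher change in T1 (5.85% over all genes), and in 1 member at 3 h (0.79%), Virad08G0444900. At 1 h (1.81% over all genes), 6 h (0.0253%), 12 h (0.147%) and 24 h (0%) limma called 0 members, and 14, 28, 3 and 4 had an unadjusted p under 0.05. Of the 17 members, 14 were also called between T1 and T2 at 48 h. Their median T1 minus T2 difference was 0.34 at 48 h and -0.04 at 0 h. Virad09G0002500 is among the 17, with a difference in change of 0.38. The single direction at 48 h depends on the scaling. With median-of-ratios scaling 9 members were called higher (4.23% over all genes) and 2 lower (2.96%). After quantile normalization 4 were called higher (3.99%) and 1 lower (2.94%). With every library at the same total 14 were called higher (5.53%) and 0 lower (1.57%). The counts at 48 h also depend on single libraries as given in the closing section.

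The spread of a member was on the whole larger in T1: 100 of the 150 had the larger SD over the T1 libraries, with a median of 0.145 in T1 and 0.127 in T2. Of the 3253 well-expressed genes 64.0% had the larger SD in T1, and their median SD was 0.443 over T1 and 0.405 over T2.

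Whether genes that are steady in one treatment stay so in the other was read from libraries that did not choose them. The same rule applied to the 21 T2 libraries alone gave 150 genes whose median SD in the T1 libraries was 0.169, against 0.443 for all well-expressed genes there. Applied to the 21 T1 libraries it gave 150 genes whose median SD in the T2 libraries was 0.142, against 0.400 for all. Of either 150, 145 were also well expressed in the treatment they were read in, and all 145 had an SD below the median there. The steadiest 10% held 108 of the genes chosen in T2 and read in T1, and 103 of those chosen in T1 and read in T2. The 2 lists had 58 genes (38.7% of each) in common, where 150 genes are 4.64% of the well-expressed genes in T1 and 4.66% in T2. Of the genes chosen in all libraries, 98 were in the T1 list and 97 in the T2 list.

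As a group, the genes chosen in T2 were less steady in T1 than the genes chosen in T1 were in T2. The mean log2 value of the 150 genes chosen in T2 had an SD of 0.0996 over the 21 T1 libraries, and that of the 150 chosen in T1 had an SD of 0.0407 over the 21 T2 libraries. In the libraries that chose them the values were 0.0359 and 0.0487. Averaging more genes lowered the SD in T1 unevenly. The steadiest gene chosen in T2 gave 0.136 there, the 3 steadiest 0.105, the 20 steadiest 0.12 and all 150 gave 0.0996. With 1 library left out of choice and reading, the 2 SDs for 150 genes ran from 0.0925 to 0.105 and from 0.035 to 0.0427. Without T1 0 h replicate 2 they were 0.102 and 0.04, and without the 3 libraries high in plastid signal 0.101 and 0.0391. For comparison, the mean log2 value of all 3253 genes had an SD of 0.119 in T1 and 0.123 in T2. The genes chosen in T2 thus came close to this figure when averaged in T1, although gene by gene they were steadier than most.

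The T2-chosen genes lay highest in T1 at 48 h and 6 h and lowest at 12 h. In the T1 libraries at 48 h the genes chosen in T2 lay 0.13, 0.18 and 0.19 above their mean on the log2 scale, and 123 of 150 were above their own mean. At 6 h they lay 0.07, 0.08 and 0.15 above, with 131 of 150 above. At 12 h they lay 0.09, 0.09 and 0.10 below it, and at 0 h between 0.10 below and 0.02 below. The T1 libraries at 48 h did not overlap those at 0 h. In T2 the genes chosen in T1 had group means between -0.04 and 0.04 at all 7 times.

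**Figure D4:**
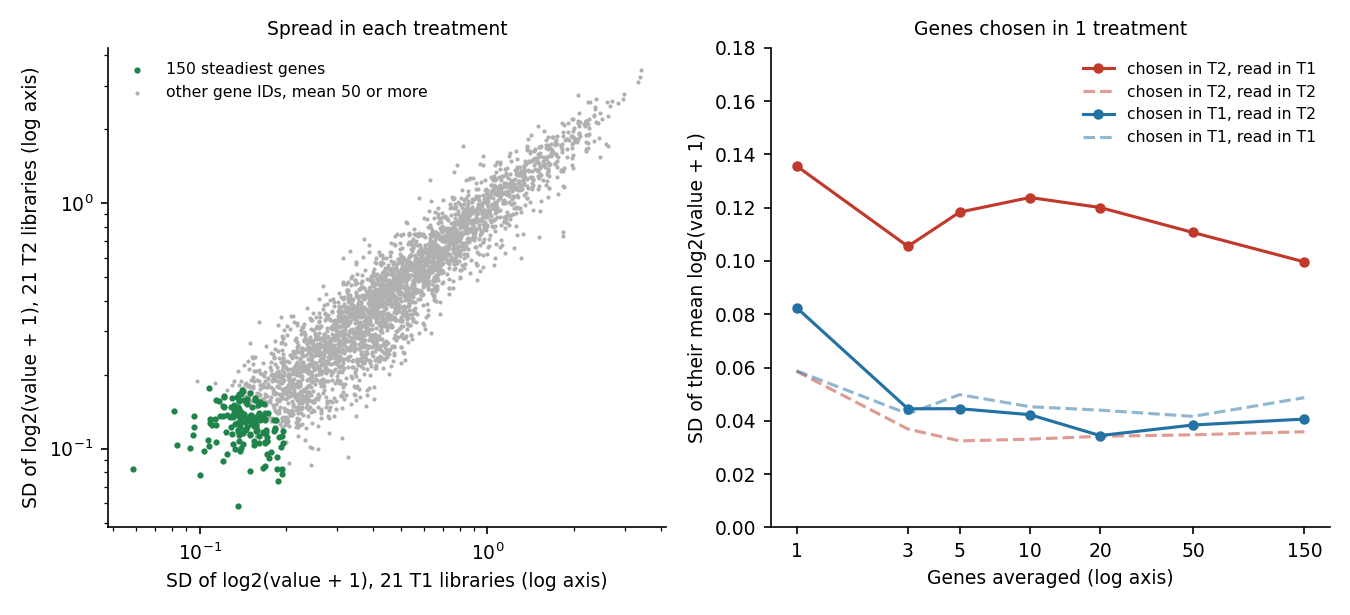
Left, SD of log2(value + 1) of each of 3253 gene IDs in the 21 T1 libraries (x) and the 21 T2 libraries (y), both on log axes, with the 150 genes chosen in all libraries in green. Right, SD of the mean log2 value of the 1 to 150 steadiest genes (log x axis) chosen in 1 treatment, read in the other (solid) and in the same (dashed). Genes chosen in T2 stay between 0.0996 and 0.136 in T1. Genes chosen in T1 have 0.0825 in T2 for 1 gene, 0.0345 for 20 genes and 0.0407 for 150.

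The larger SD in T1 was found under each scaling tried, with choice and reading both rescaled. The SD of the mean log2 value of genes chosen in T2 and read in T1, against that of genes chosen in T1 and read in T2, was 0.0789 against 0.0309 with median-of-ratios scaling and 0.0553 against 0.0363 with quantile normalization. It was 0.16 against 0.0558 with every library at the same total. The mean of all 3253 genes had 0.114 in T1 against 0.113 in T2, 0.0529 against 0.0423, and 0.123 against 0.0662 under the same 3 scalings. T2-chosen genes above their own mean in T1 at 48 h numbered 109, 93 and 114 of 150. With the same total, T1 0 h libraries ran from 0.32 below the mean to 0.05 above it, and the library above was the one that stands apart. These are values from the 3 libraries of each group and no test was made of the difference.

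What counts as steady depended strongly on the scaling. The deposited columns at 12 h sum to 783218 to 809852, and at 0 h to 1082560 to 1228250. When every column is brought to 1000000, as plain TPM would have it, the members move with the bulk of the genes: their median log2 difference between 12 h and 0 h was 0.52 in T1 and 0.41 in T2, against -0.03 and -0.06 as deposited. The median over all genes tested moved as well, to 0.49 and 0.39, against 0.01 and -0.01 as deposited. With the same total all 150 members were called higher at 12 h in T1, where 58.4% of all genes were called higher, and 136 in T2, where 50.5% were. As deposited 11 were called higher (22.5% over all genes) and 18 lower (19.2% over all genes) in T1, and 9 higher (23.7% over all genes) and 24 lower (24.6% over all genes) in T2. After quantile normalization the calls at 12 h leaned the other way, with 42 higher (22.9% over all genes) and 2 lower (20.2%) in T1, and 46 higher (25.8%) and 3 lower (23.0%) in T2.

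**Figure D5:**
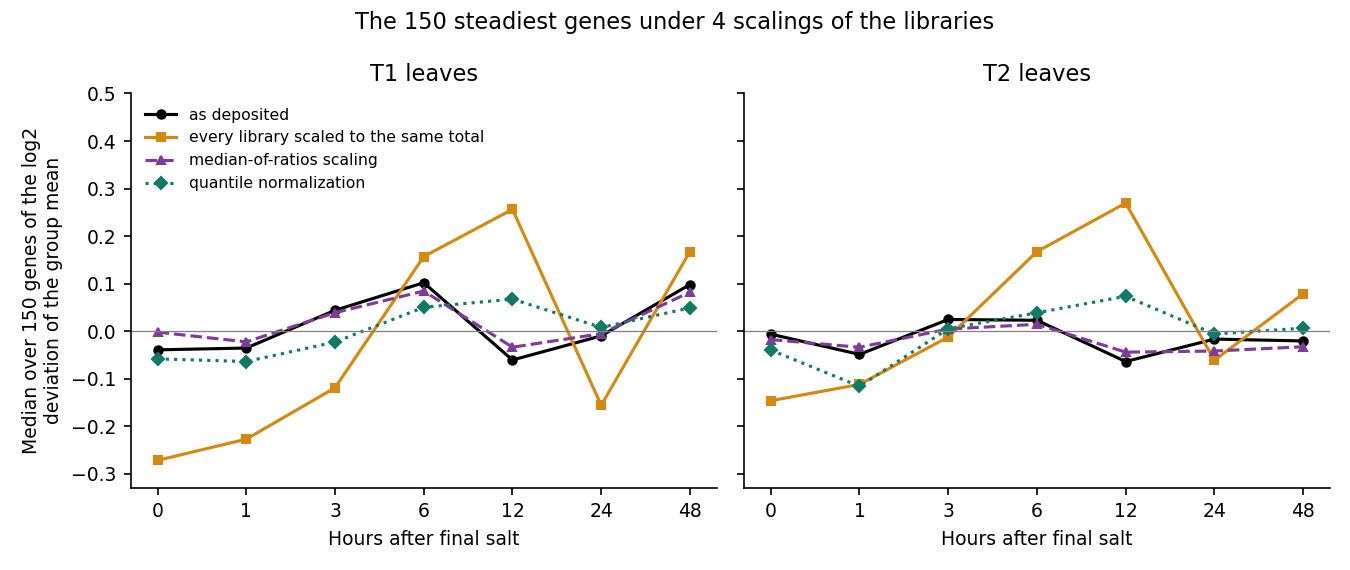
Median over the 150 genes of the log2 deviation of each group mean from the gene's own mean, by hours after the final salt, for T1 (left) and T2 (right) under 4 scalings of the libraries. As deposited the medians stay between -0.06 and 0.10, and with every library at the same total they run from -0.27 in T1 at 0 h to 0.27 in T2 at 12 h.

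With every library at the same total the members' SDs ran from 0.146 to 0.316 with a median of 0.226, the geometric mean of the 150 genes had an SD of 0.186 over the libraries, and 43 of the 150 were chosen again. The 107 genes lost had a median 12 h minus 0 h difference of 0.01 as deposited and 0.52 with the same total, and the 107 gained in their place had -0.39 and 0.12. With median-of-ratios scaling 137 of the 150 were chosen again and with quantile normalization 108. Virad01G0171100, first as deposited, had an SD of 0.208 with the same total, 0.0716 with median-of-ratios scaling and 0.135 after quantile normalization. Virad10G0308600, the third as deposited, had 0.149, 0.0876 and 0.0772.

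A core of 37 genes (24.7% of the 150) was among the 150 steadiest under all 4 scalings. Their number is what the overlap gave and no test was made of it. All 37 were also among the 150 with the smallest SD of log2 ratios to the other well-expressed genes, a measure that no scaling of a whole library can alter and that kept 102 of the 150 in all. Virad08G0454000 and Virad10G0308600, the second and the third by SD, belong to the core, and Virad01G0171100 does not. The most abundant gene of the core was Virad10G0156800, named after its values were seen. Its libraries ran from 183 to 280.2 around a mean of 238. Its SDs were 0.149 as deposited, 0.146 with the same total, 0.139 with median-of-ratios scaling and 0.0975 after quantile normalization.

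In ratios between members 1 factor per library nearly cancels. They show which members keep together, whereas quantitative PCR sets a target against a reference gene. Over the 11175 pairs of members the SD of the log2 ratio ran from 0.0675 to 0.277 with a median of 0.181. By the mean of this SD over the other 149 members, Virad08G0162700 (0.143) and Virad08G0454000 (0.150) stood nearest to the rest, and Virad01G0171100 had 0.155. The pairs with the smallest values were named after they were seen. Virad10G0164500 and Virad09G0042900 had an SD of 0.0675, with a ratio between 0.791 and 0.973 in the 42 libraries. Virad08G0444700 and Virad11G0095800 had an SD of 0.0722, with a ratio between 0.370 and 0.462. The neighbouring IDs Virad02G0195800 and Virad02G0195900 had an SD of 0.0758, with a ratio between 0.756 and 1.13. In these pairs the log2 values of the 2 genes had Pearson correlations of 0.90, 0.88 and 0.88. A small ratio SD here thus marks genes that moved together and does not by itself mark steadiness. Reads of near-identical neighbours can be split between copies by counting, and whether these IDs are such copies is not known from the table, so their levels are uncertain.

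By the chromosome part of the ID, which the rule did not use, members came from all 11 numbered sets. Virad08 IDs made up 39 of the 150 (26%) and 16.9% of the 3253, so 7.10% of the well-expressed Virad08 IDs were members. The other 10 sets gave between 2.95% (Virad06) and 5.53% (Virad11). None of the 8 well-expressed plastid IDs was a member. In the order of IDs, 7 pairs of members lay within 5 steps of each other, 3 of them directly next to each other. These are counts, and no test was made of them.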

How the data were processed

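Leaf RNA was measured in 42 libraries. The submitters' processing notes name fastp 1.0.1, HISAT2 2.2.1, featureCounts and DESeq2 1.48.2. The role of each tool and the scaling step are not stated; genome build and annotation: not given in the sources used here. One deposited table gives a normalized expression signal for each gene ID and library, made by the authors and named TPM, with unequal column sums. Tests planned for TPM on a log scale were kept for this signal. Read counts are not part of the table, so absolute depth is unknown and no counting interval is given. Relative depths come from 3914 low values, which after 1 factor per library sat within 0.1 of a whole number of steps in 96.1% of cases, against 21.1% before.

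Values were compared as log2(value + 1), on which changes of low genes are understated. Genes at 1 or more in at least 3 libraries were tested. One mean per group was fitted to all 42 libraries with limma 3.58.1 in R 4.3.3 (robust, trended variance), with two-sided p-values and Benjamini-Hochberg adjustment across 19753 genes. The fit was tested on simulated data. Spreads, rankings and figures used Python 3.11.15, numpy 2.4.6, pandas 2.3.3 and matplotlib 3.10.9.

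Median-of-ratios scaling used genes at 1 or more in every library, and quantile normalization gave all libraries the same distribution. The genes and lists were chosen with earlier results of these data known. Named genes are the 6 with the smallest SD, the 4 with the highest mean, the 2 on either side of the limit, the 2 with the smallest ratio SD, and the 2 with the largest positive and 2 with the largest negative called difference. Lists of textbook reference genes and leaf markers were not run, since no ID matched a name. Libraries were not paired by replicate number in the main fit: same-numbered deviations of T1 and T2 at one time had a mean correlation of -0.02 (21 pairs, from -0.40 to 0.55).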

Additional observations from a re-analysis of the deposited data

Results flagged for a closer look

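A course that differed between the treatments, by limma's interaction test, was called for 16 of the 150 genes over all times, where 15.9% of all genes were called. By single time it was called for 1 member at 3 h (0.79% over all genes), and for 17 members at 48 h (8.38% over all genes), all with the higher change in T1. The median change from 0 to 48 h of these 17 was 0.40 in T1 and 0.05 in T2 on the log2 scale, and their differences in response ran from 0.31 to 0.54. The count of 17 became 29 when T1 0 h replicate 2 was left out (18.9% over all genes). It fell to 4 and 8 when replicate 1 or 2 of T1 at 48 h was left out (2.48% and 4.9% over all genes), and to 6, 11 and 11 when replicate 1, 2 or 3 of T2 at 48 h was (4.39%, 5.86% and 5.9%). Leaving out a 0 h library gave 9 for T1 replicate 1 (5.26% over all genes), 10 for T2 replicate 2 (5.7%) and 8 for T2 replicate 3 (4.74%). The share over all genes thus moved the same way as the members' count in each of these. The direction was not the same under every scaling. At 48 h median-of-ratios scaling gave 9 members higher (4.23% over all genes) and 2 lower (2.96%). Quantile normalization gave 4 higher (3.99%) and 1 lower (2.94%). Since the choice of genes used these libraries, the counts describe the list.

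Of the genes named in the text, Virad09G0002500 had adjusted p = 0.0133 in limma's F test of the different course, with T1 at 163 ± 7.68 and T2 at 124 ± 6.15 at 48 h (SD, n = 3 each). Virad08G0444900 had adjusted p = 0.0403, with T1 at 66.2 ± 4.65 and T2 at 54.9 ± 0.682 at 3 h and T1 at 46.3 ± 6.21 and T2 at 56.5 ± 6.32 at 0 h. It is the 1 member called at 3 h.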

How the results depend on the processing

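Leaving out each library in turn kept between 140 and 149 of the 150 genes, and 0.1 as pseudocount kept 149. Fewer were kept with a mean of at least 20 (30) or 100 (36), every library at the same total (43), the median absolute deviation in place of the SD (94), and T1 or T2 libraries only (98 and 97). With the same total the SD of the members' geometric mean was 0.186, 26 members were called between T1 and T2 at 48 h (20.5% over all genes), 130 in T1 at 6 h (54.1%) and 130 at 48 h (56.3%) against 0 h, and 136 in T2 at 12 h (61.7%). Quantile normalization gave 24 members in the F test of T1 against T2 (34% over all genes) and 5 for the differing change at 48 h (6.94%), for which median-of-ratios scaling gave 11 (7.19%). Without the 3 libraries high in plastid signal, an alternative added after the data were seen like those of single contrasts, the F test of T1 against T2 gave 23 (24.8% over all genes) and T2 at 12 h gave 20 (43.6%).

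With 1 library left out the F tests gave 101 to 118 (time, T1), 83 to 101 (time, T2), 18 to 62 (T1 against T2) and 6 to 29 (differing course) members. Single contrasts gave 24 to 47 (T1 against T2 at 48 h), 35 to 60 (T1 at 6 h), 48 to 63 (T1 at 48 h), 20 to 38 (T2 at 12 h, the lowest without T2 12 h replicate 1) and 4 to 29 (differing change at 48 h). The SDs of the 17 named genes stayed within their replicate spread in all 714 such values. Leaving out 1 of 42 libraries can shift such an SD only slightly, so that outcome was largely fixed in advance. With the same total 7 of the 17 moved beyond the replicate spread, and 1 did with quantile normalization. A replicate block gave 110, 90, 32 and 14 members in the 4 F tests, against 112, 97, 38 and 16. No sign of pairing by replicate number was seen: 7 of 42 libraries correlated best with their own number. The labels do not say whether equal numbers mark a shared source.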
